A study of Mus musculus with 12 samples.

Results

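Open chromatin of the single library titled S_221_IGF1_xeno was compared with that of the 2 libraries of the group EF_IGF1, titled S_220_IGF1 (replicate 1) and S_221_IGF1 (replicate 2). Peaks that overlapped in any of the 12 libraries were joined, which gave 153346 regions on chromosomes 1 to 19 and X, and 71680 of these were called in at least 1 of the 3 libraries. A region was counted as gained when it was called in the xeno library and in neither EF_IGF1 library, and as lost when it was called in both EF_IGF1 libraries and not in the xeno library. There were 1218 gained regions, 1.7% of the 71680, and 10469 lost regions, 14.6%. The lists behind these counts differed in length, with 43376 peaks in the xeno library, 59290 in EF_IGF1 replicate 1 and 63463 in EF_IGF1 replicate 2.

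The samples are mouse cells that the labels call MSCLCs, and the series title names bone mesenchymal stem cells, EWS::FLI1, YAP1 and IGF-1. The genotype labels are EF_IGF1_xeno (1 library), EF_IGF1 (2 libraries), EF (4), Wt (4) and Wt_IGF1 (1). All 3 libraries compared here were run in lane 6 of flowcell BSF_1013, and the xeno library shares the name S_221 in its title with EF_IGF1 replicate 2 and with EF replicates 2 and 4, while EF_IGF1 replicate 1 is named S_220. The labels give neither the meaning of EF and xeno, nor the host, site or sorting of xeno cells, nor a dose or time of IGF1, and they do not tie the names EFPrx1, ha-EFPrx1 and hr-EFPrx1 of the design text to any library. With 1 xeno library and no replicate of it, every difference below is a difference between these libraries, without a test, and a condition cannot be told apart from a library.

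ATAC-seq uses a transposase that inserts sequencing adapters into DNA that is not wrapped tightly in nucleosomes, so that a peak marks an open stretch such as a promoter or an enhancer. EWS::FLI1 is the fusion oncogene of Ewing sarcoma, a tumour of bone and soft tissue, and binds DNA at GGAA motifs. IGF1 is a growth factor that acts through the receptor Igf1r, the adaptors Irs1 and Irs2 and PI3-kinase. YAP1 is a coactivator that the Hippo kinases keep out of the nucleus and that binds DNA through TEAD factors. Promoters tend to be open in many cell types, whereas distal elements vary more between cell states.

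Promoters among the strongest gained and lost regions that cover a start site are shown first, since there a call can be tied to a gene without a distance rule. Abcg2 and Gsta2 ranked first in their direction, and Hey2, Ifih1, Igtp and Tnc, within the first 14, were chosen after their values were seen, as genes of known function. Each is the 250 bases before the RefSeq start site (GRCm38.p6), read 5′ to 3′ on the strand of the gene, with capitals at matches, on either strand, to any of 8 motifs: TGANTCA for AP-1, GGAATG for TEAD, GGAAGGAA as a doubled ETS site, TGACGTCA for CRE, CCAAT for the box of that name, GGGCGG for the GC box, CACGTG for the E-box and TGTGGT for RUNX. Overlapping matches share their capitals.

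The gained promoter with the highest −log10 p in the xeno list was that of Abcg2, an efflux transporter used as a marker of side-population stem cells. It lies at chr6:58640296-58640545 on the plus strand, with GC boxes and a CRE.
Abcg2: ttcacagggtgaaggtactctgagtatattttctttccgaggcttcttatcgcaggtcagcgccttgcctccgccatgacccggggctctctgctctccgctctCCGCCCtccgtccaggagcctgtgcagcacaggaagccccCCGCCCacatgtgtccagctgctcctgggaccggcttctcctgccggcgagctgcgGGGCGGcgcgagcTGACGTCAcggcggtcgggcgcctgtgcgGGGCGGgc

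The gained promoter of Hey2, a repressor induced by NOTCH signalling, lies at chr10:30842784-30843033 on the minus strand and matches the TEAD motif, the CCAAT box and the GC box.
Hey2: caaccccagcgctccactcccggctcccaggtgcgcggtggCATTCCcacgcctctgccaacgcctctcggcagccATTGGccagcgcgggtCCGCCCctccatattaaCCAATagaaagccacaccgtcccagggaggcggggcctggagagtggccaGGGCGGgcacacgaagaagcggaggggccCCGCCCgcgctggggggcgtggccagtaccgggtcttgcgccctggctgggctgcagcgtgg

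The gained promoter of Ifih1, which encodes the cytoplasmic RNA sensor MDA5, lies at chr2:62646256-62646505 on the minus strand and matched none of the 8 motifs.
Ifih1: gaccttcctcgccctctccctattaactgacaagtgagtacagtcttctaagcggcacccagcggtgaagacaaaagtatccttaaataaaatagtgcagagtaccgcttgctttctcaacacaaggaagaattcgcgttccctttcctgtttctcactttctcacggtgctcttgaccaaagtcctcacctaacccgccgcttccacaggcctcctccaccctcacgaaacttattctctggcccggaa

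The lost promoter with the highest mean percentile in the EF_IGF1 lists was that of Gsta2, a glutathione transferase, at chr9:78347146-78347395 on the minus strand, with 1 CCAAT box.
Gsta2: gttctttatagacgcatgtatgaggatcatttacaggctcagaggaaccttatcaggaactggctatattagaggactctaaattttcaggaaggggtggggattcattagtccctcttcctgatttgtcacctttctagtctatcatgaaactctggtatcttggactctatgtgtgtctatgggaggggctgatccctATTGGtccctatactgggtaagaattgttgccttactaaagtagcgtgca

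The lost promoter of Igtp, an interferon-induced GTPase of cell-autonomous immunity, lies at chr11:58199306-58199555 on the plus strand and matched none of the 8 motifs.
Igtp: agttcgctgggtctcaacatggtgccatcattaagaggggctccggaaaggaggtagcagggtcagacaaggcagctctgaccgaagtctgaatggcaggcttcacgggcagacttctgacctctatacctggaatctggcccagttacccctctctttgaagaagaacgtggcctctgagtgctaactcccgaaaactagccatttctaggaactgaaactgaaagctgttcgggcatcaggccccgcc

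The lost promoter of Tnc, which encodes the matrix glycoprotein tenascin C, lies at chr4:64046937-64047186 on the minus strand, with 1 GC box.
Tnc: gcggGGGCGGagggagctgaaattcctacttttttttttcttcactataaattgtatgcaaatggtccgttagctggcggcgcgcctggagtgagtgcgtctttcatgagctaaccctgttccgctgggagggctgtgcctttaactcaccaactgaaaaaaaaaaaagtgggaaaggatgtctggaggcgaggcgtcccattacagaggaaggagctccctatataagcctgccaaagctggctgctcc

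The authors' value for each peak is a fold, the reads at the summit plus 1 over the local background plus 1. At the Abcg2 promoter the xeno library had a fold of 12.9, at percentile 70.7 of its own list by −log10 p, and the region was also called in 6 of the 9 libraries that took no part in the rule. At Hey2 the xeno fold was 10.3 (percentile 53.8), and 8 of the 9 other libraries called the region. At Ifih1 the xeno fold was 7.73 (percentile 43.2), again with a call in 8 of the 9. Both Hey2 and Ifih1 lacked a call in EF replicate 2 as well as in the EF_IGF1 libraries, and Abcg2 also lacked one in EF replicate 2 and in Wt replicates 1 and 3. Gsta2 had folds of 8.53 and 10 in EF_IGF1 replicates 1 and 2 and was called in none of the 9 others. Igtp had folds of 7.25 and 9.87 and was called in 6 of the 9, and Tnc had folds of 7.50 and 8.78 and was called in 6 of the 9.

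Start sites as a whole were called almost equally often in the 3 libraries, unlike the full lists. Of 17274 protein-coding genes with a RefSeq start site, 8763 had it inside a region called in xeno, 8794 in EF_IGF1 replicate 1 and 8901 in EF_IGF1 replicate 2. Gained regions covered the start sites of 69 genes and lost regions those of 140, against 8570 for regions called in all 3 libraries. The median GC content of these promoters was 62.4% for gained, 54.0% for lost and 60.8% for regions called in all 3, with 55.6% over all 17274.

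Motif shares of gained and lost promoters are given beside those of all promoters, and the part of GC content in them was not tested. The GC box stood in 60.9% of gained promoters and 36.4% of lost ones, beside 64.2% of promoters called in all 3 and 43.2% of all promoters. The TEAD motif stood in 4.35% of gained, 13.6% of lost and 11.5% of all promoters, and AP-1 in 1.45%, 7.86% and 6.27%. The gained shares for TEAD and AP-1 rest on 3 promoters and 1 promoter. Those for the doubled ETS site, CRE and RUNX rest on 3, 2 and 4 promoters, and the lost CRE share on 1. The doubled ETS site, the letters that EWS::FLI1 binds in repeats, stood in 4.35% of gained, 4.29% of lost and 2.75% of all promoters. CRE stood in 2.90% of gained, 0.714% of lost and 2.03% of all promoters, and the E-box in 8.70%, 4.29% and 6.72%. RUNX stood in 5.8% of gained, 13.6% of lost and 12.3% of all promoters, and the CCAAT box in 29.0%, 34.3% and 36.7%.

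Some immune genes stood among the promoters in either direction. Gained start sites within the 13 highest by −log10 p included those of Ifih1, of Ifi44, an interferon-induced gene (xeno fold 8.55, called in 2 of the 9 others), and of Oas1a, an enzyme that activates RNase L (7.75, in 4 of the 9), and a further gained start site was that of H2-T3, an MHC class I gene (6.07, called in the xeno library alone). Lost start sites included those of Igtp, of the MHC class I genes H2-T23 (folds of 5.56 and 10.3 in EF_IGF1 replicates 1 and 2) and H2-M2 (13.3 and 7.69, in none of the 9), of Ifit3, which binds antiviral RNA sensors (6.69 and 6.79), and of Isg15, a ubiquitin-like modifier (4.17 and 4.52). Isg15 was called in 1 of the 9 other libraries, EF replicate 4, and Ifit3 in 5. These genes were named after their values were seen, and make up no fixed list. MHC class I genes have near-identical copies, between which the reads of such peaks may be split.

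Over all 17274 genes with a start site, 69 had it inside a gained and 140 inside a lost region. The 27 lists of pathways and cell markers hold 592 genes, not all with a start site among these. Of the list genes, 11 had a start site inside a gained or lost region, and all are given here, named after their values were seen. The gained ones were Kdr, the VEGF receptor of endothelium (xeno fold 5.35, percentile 9.45), and Disp1, which releases hedgehog ligands (6.14, percentile 25.3). Disp1 has another RefSeq start site that was called in an EF_IGF1 library too. The Kdr start site was called in 5 of the 9 other libraries and that of Disp1 in 6. The lost ones besides H2-T23, Ifit3, Isg15 and Tnc were Prrx1, Nes, Acta2, Lmod1 and Col11a1. Prrx1, a homeobox gene of limb mesenchyme, had folds of 2.71 and 3.53 at its start site in EF_IGF1 replicates 1 and 2, and Nes, the intermediate filament nestin, 6.34 and 5.31. Acta2, smooth muscle actin, had folds of 5.89 and 5.56, Lmod1, a smooth muscle actin nucleator, 7.81 and 7.42, and Col11a1, a cartilage collagen, 4.75 and 5.26. Acta2 was called in 8 of the 9 other libraries, Lmod1 in 6, Nes and Prrx1 in 5 each and Col11a1 in 4.

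Calls at start sites of marker genes were counted beside those of all genes. Over all genes 8763 of 17274 start sites were called in xeno, and 8794 and 8901 in EF_IGF1 replicates 1 and 2. In the mesenchymal stem and limb list 8 of 19 start sites were called in xeno, and 10 and 11 in the EF_IGF1 libraries. That is below the share of all genes in xeno and above it in both EF_IGF1 libraries. Pdgfra, Cxcl12, Lepr, Eng, Hand2, Shox2, Meis2 and Tbx4 were called in none of the 3. These counts do not establish the labelled cell type. In the blood list 3 of 19 start sites were called in each of the 3 libraries. Those called in none of the 3 included Ptprc, Ikzf1, Cd3e, Cd79a and Itgam. The other 9 libraries had 2 to 13 of the 19, the highest in Wt replicate 2. Other blood markers went the other way when all regions nearest to the gene were counted. Regions called in all 3 libraries were 3 of 3 at Spi1, 2 of 2 at Cd68, and 1 of 1 at Tyrobp and at Lyz2. In the endothelial list 1 of 11 was called in xeno (Kdr), and 1 and 0 in EF_IGF1 replicates 1 and 2. No start site of the skeletal muscle list (14 genes) or the epithelial list (9 genes) was called in any of the 3, and 3 of 13 of the neural list in each.

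Most of what the xeno library called was shared. Of its 40945 regions, 88.2% were called in both EF_IGF1 libraries, a further 1822 in EF_IGF1 replicate 1 alone and 1806 in replicate 2 alone, and 2.97% were gained. Of the 46568 regions called in both EF_IGF1 libraries, 77.5% were called in xeno and 22.5% were lost. For scale, 8020 regions were called in EF_IGF1 replicate 1 alone of the 3 libraries and 12246 in replicate 2 alone, so each EF_IGF1 library had more regions of its own than the xeno library. The genome background, the lowest local background of a library, was 1.80 reads in xeno and 1.56 and 1.47 in EF_IGF1 replicates 1 and 2, and the median peak had 35, 36 and 32 reads at its summit.

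Gained regions were weak peaks of their list. Their median percentile in the xeno list was 15, with 871 of them (71.5%) below percentile 25 and 44 above percentile 50. Lost regions had medians of 27.0 and 30.6 in the lists of EF_IGF1 replicates 1 and 2, and 513 of them were above percentile 50 in both lists. Regions called in all 3 had medians of 57.5, 69.1 and 70.6. A lost region needs 2 calls and a gained one 1, and the lists differ in length, so the percentiles of the 2 sets are not compared. Median widths were 349 bp for gained, 451 bp for lost and 751 bp for regions called in all 3.

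**Figure D1:**
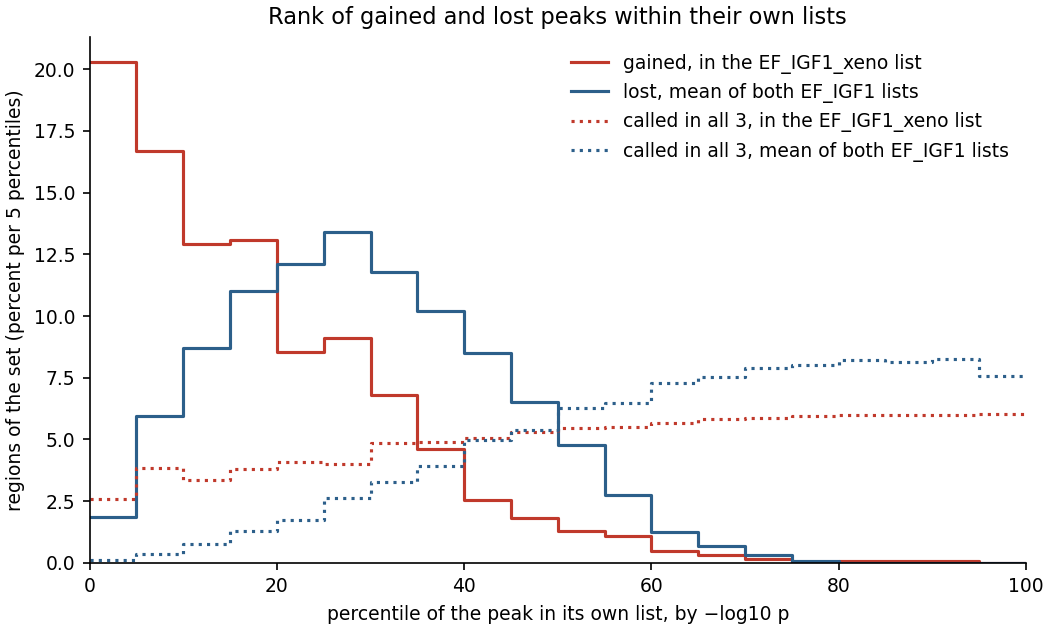
Percent of regions (y axis, per 5 percentiles) by the percentile of the peak in its own list by −log10 p (x axis), for gained and lost regions (solid) and regions called in all 3 libraries (dotted). Lost regions are placed by their mean percentile in the EF_IGF1 lists. Gained regions pile up at the low end around a median of 15, and both sets are rare at the high end, with 3 gained regions above percentile 75 in xeno and 31 and 112 lost ones in the single lists of EF_IGF1 replicates 1 and 2.

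The balance between the directions moved with list length. When each library was held to its 43376 strongest peaks, 3857 regions were gained and 3119 lost, so that gained regions outnumbered lost ones. All 1218 gained regions were kept under this setting, as the xeno list is unchanged, but 3118 of the 10469 lost regions (29.8%). Against EF_IGF1 replicate 2 alone, which shares the name S_221 with xeno, 3040 regions were gained and 22715 lost, and against replicate 1 alone 3024 and 18489.

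The libraries that took no part in the rule called lost regions more often than gained ones, with 1 exception. The rule asks for 2 calls of a lost region and 1 of a gained one, so that part of a higher share elsewhere is built into it. EF replicate 4, titled S_221_0, of the same name S_221 and flowcell and without IGF1 in its label, called 74.9% of lost regions (95% Clopper-Pearson interval 74.1 to 75.8) and 38.7% of gained regions (35.9 to 41.5), where it called 89.1% of all xeno regions and 89.5% of all regions of both EF_IGF1 libraries. Over the 4 EF libraries, lost regions were called at 41.0% ± 26.5 (SD, n = 4) and gained regions at 23.4% ± 12.3. Over the 4 Wt libraries the values were 35.2% ± 25.9 (SD, n = 4) and 17.4% ± 10.3, and Wt_IGF1 called 66.7% and 33.1%. The EF libraries carry the names S_220 and S_221, each on flowcells BSF_0654 and BSF_1013, with 27309 to 67306 peaks. The Wt libraries also lie on both flowcells, with 7723 to 69662 peaks. These SDs thus mix flowcell and list length, and are not a spread of independent replicates. The exception was Wt replicate 1, with the shortest list (7723 peaks), at 0.411% of lost and 3.37% of gained regions. Among regions above percentile 50 (44 gained in the xeno list, 513 lost in both EF_IGF1 lists), EF replicate 4 called 40.9% of gained and 91.6% of lost ones, and Wt replicate 1 13.6% and 0.585%. The intervals count regions of single libraries, which are not independent, and cover counting error only.

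**Figure D2:**
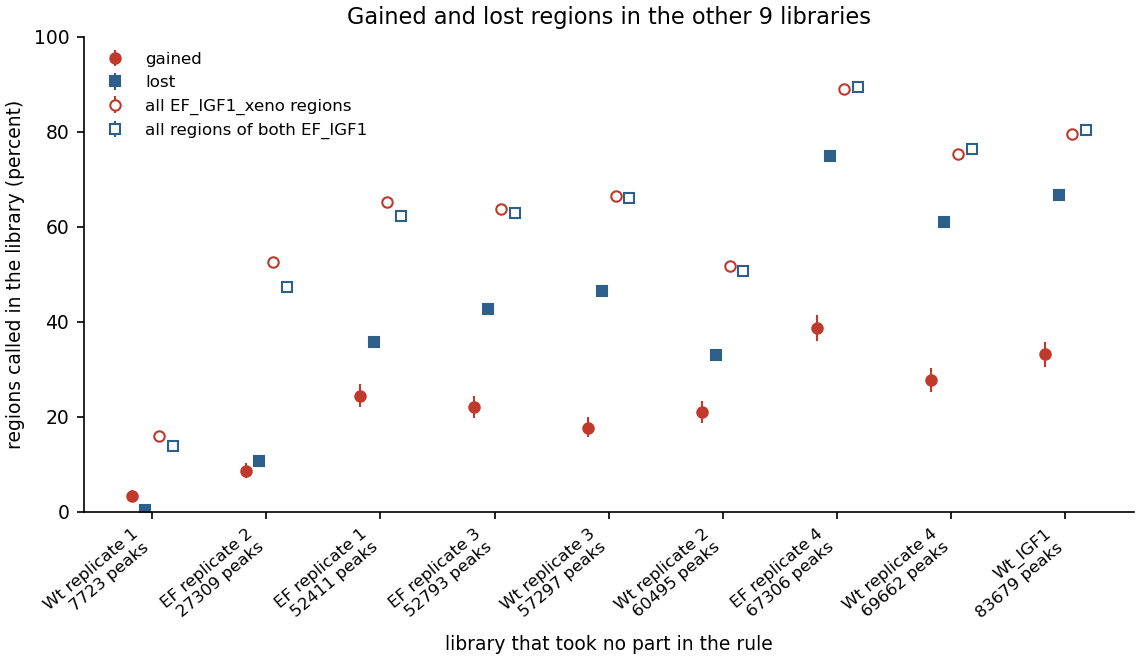
Percent of regions called (y axis) in each library that took no part in the rule (x axis, ordered by its number of peaks), with 95% Clopper-Pearson intervals as bars; filled symbols are gained and lost regions, open symbols all regions of the defining libraries. Lost regions run from 0.411% to 74.9% and gained regions from 3.37% to 38.7%, both below the open symbols.

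Counted per region, 442 gained regions (36.3%) were called in none of the 9 other libraries, against 1125 lost regions (10.7%) and 2.96% of those called in all 3. At the other end, 190 gained regions (15.6%) and 4269 lost regions (40.8%) were called in 5 or more of the 9, against 74.0% of those called in all 3. For the next counts, Wt_IGF1 was placed with the 4 Wt libraries under the name Wt. Of the gained regions, 217 were called in EF and not Wt libraries, 164 in Wt and not EF libraries, and 395 in both kinds. The corresponding numbers of lost regions were 1200, 895 and 7249. Most regions called in both EF_IGF1 libraries and missing from xeno were thus called in at least 1 other library, and a larger share of gained than of lost regions had no call elsewhere.

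Both sets lay near gene ends less often than regions called in all 3 libraries, which were also stronger and wider peaks. No set of similarly weak peaks was placed, so the part of peak strength in this was not tested. A summit lay within 1 kb of either end of a protein-coding gene for 11.4% of gained regions (Clopper-Pearson 9.68 to 13.3) and 6.94% of lost regions (6.46 to 7.45), against 27.2% of regions called in all 3. Within 1 kb of a RefSeq start site, with strand, the shares were 7.96%, 3.88% and 23.6%. Inside a gene lay 50.3% of gained, 51.6% of lost and 63.1% of regions called in all 3, and more than 100 kb from any gene 12.1%, 8.02% and 6.28%. Among the 513 lost regions above percentile 50 in both lists, 1.36% were within 1 kb of a start site, and among the 44 gained regions above percentile 50 it was 11.4% (5 regions, interval 3.79 to 24.6).

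The gained region with the highest −log10 p was inside Frrs1, a ferric reductase gene, at chr3:116905796-116906335, with 88 reads at the summit, a fold of 17.7 and percentile 94.3 in the xeno list, and a call in 6 of the 9 other libraries. The next was inside Vgll4 at chr6:114934074-114934575, with 89 reads and a fold of 10.1 (percentile 85.8). Vgll4 encodes a factor that competes with YAP1 for TEAD. This region was also called in Wt_IGF1 and Wt replicate 4, with folds of 5.97 and 8.27, and in none of the EF libraries. A region inside Lepr, the leptin receptor, which marks bone marrow stromal cells, at chr4:101723943-101724345 had 56 reads and a fold of 16.4 (percentile 82.6) and was called in the xeno library alone of all 12. A second gained region 1454 bp from Lepr, at chr4:101715255-101715683, had a fold of 8.86 and was also called in EF replicate 4.

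The other regions of the 10 strongest gained belonged to Akap6, Abcg2, Prss56, Arhgef19, Cep128, Pf4 and Efna5, with xeno folds from 6.41 (Prss56) to 13.4 (Akap6). Pf4 encodes a platelet chemokine. Its region, 3904 bp from the gene at chr5:90777287-90778098, had a fold of 11.9 and was called in the xeno library alone. Akap6, a scaffold for protein kinase A, Cep128, a centriole protein, and Efna5, an ephrin ligand, held their regions inside the gene, and 4, 2 and 3 of the 9 other libraries called them.

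The strongest lost region was inside Ltbp2, an extracellular matrix protein related to the TGF-beta binding proteins, at chr12:84801628-84802142, with folds of 15.9 and 13.9 in EF_IGF1 replicates 1 and 2 (73 and 64 reads) and a call in 4 of the 9 others. Near Ccne1, the gene of the S-phase cyclin E1, a region at chr7:38111836-38112409 had folds of 7.62 and 11.6 (47 and 94 reads) and a call in 6 of the 9. Others of the 10 strongest lost regions belonged to Arf2, Arhgap22, Prpsap1, Trim37, B3glct, Slc46a1 and Sipa1l1, with folds from 11.6 to 17.4 in replicate 1 and from 12.3 to 16.3 in replicate 2, and 3 to 7 of the 9 other libraries called them. Regions are named by their nearest gene, which need not be a gene they act on.

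The 1071 gained regions within 100 kb of a gene were nearest to 965 genes. Of these genes, 876 had 1 gained region, 77 had 2 and 12 had 3 or more, and 492 also had a lost region. Lost regions near a gene were more numerous, 9629 at 6180 genes. How many of all genes with a region had a lost one was not counted, so the overlap of 492 is a description only. Within 100 kb of a gene, 1.63% of regions were gained and 14.7% lost. Trpc6, a calcium-permeable channel, had the most gained regions, 7 of 23, followed by Gli2, a transcription factor of the hedgehog pathway, with 4 of 16. Irs2, Dlc1, Gpr149, Synpo, Gse1, Serp2, Creb5, St3gal1, Slc25a48 and Tafa5 had 3 each, and Lepr, Arhgef19 and Rcan1 had 2. Several of these also had lost regions, among them Gse1 with 7 lost of 46 regions, which is more than its gained ones, Irs2 with 2 lost of 29 and Trpc6 with 2.

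At Gli2 the 4 gained regions had xeno folds from 3.69 to 6.78 and 12 to 25 reads. Of these, the region at chr1:118993775-118994213 was called in 6 of the 9 other libraries, all 4 EF libraries among them, another in 5, and the remaining pair in none. At Irs2, the insulin and IGF receptor substrate, the 3 gained regions had folds from 3.64 to 9.94 and 25 to 30 reads, and none was called elsewhere. The strongest of them, at chr8:11079757-11080076, lay 70828 bp from the gene. At Dlc1, a GTPase-activating protein and tumour suppressor, the 3 gained regions were each called in 4 to 8 of the 9 others, with folds from 4.28 to 8.62. Gpr149, an orphan receptor, had all 3 of its regions gained, with folds from 4.08 to 5.63.

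Of the 6180 genes with a lost region, 758 had 3 or more, in a set of 9629 lost against 1071 gained regions near a gene. Kalrn, a guanine nucleotide exchange factor, had 16 of 38 regions lost, with folds from 4.25 to 15.8 in EF_IGF1 replicate 1 and from 4.22 to 11.9 in replicate 2. Ablim1, an actin-binding LIM protein, had 12 of 32 lost, Thsd4, a matrix protein of microfibrils, 11 of 36, Arhgap42, a GTPase-activating protein, 11 of 57, and Dysf, dysferlin, 9 of 23. With 8 lost regions each followed Cdkal1 (of 29), Camta1 (of 40), Dlgap2 (of 45) and Cacna1a (of 30). With 7 each followed Rab11fip4 (of 25), Lpp (of 37), Anks1 (of 12), Arnt2 (of 21), Shank2 (of 28) and Clec16a (of 16). Dlgap2 and Lpp had lost shares nearer to the 14.7% of all regions near a gene, whereas Kalrn, with 38 regions, did not. At Anks1 7 of 12 regions were lost and 1 was called in all 3 libraries. At Kalrn 15 of the 16 lost regions were called in at least 1 of the 9 other libraries, whereas at Arhgap42 8 of the 11 were called in none.

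Trpc6 and Arhgap42 lie in the same stretch of chromosome 9, next to Yap1. The 1 Mb window from 8 to 9 Mb had the most gained regions of 2433 windows, 11 of 74 (14.9%), and all 11 were called in none of the 9 other libraries. The next windows had 8 (chromosome 2, 167 to 168 Mb) and 6 (chromosome 4, 141 to 142 Mb). From 8 to 10 Mb, 14 regions were gained and 30 lost of 170, and 20 of the 30 lost regions were called in none of the 9. Gained regions lay toward Yap1 and Trpc6, with 8 gained and 5 lost of 43 from 8 to 8.5 Mb, and lost regions toward Arhgap42, with 1 gained and 16 lost of 73 from 9 to 9.5 Mb.

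The local background behind these peaks was raised in the same 3 libraries. From 8 to 10 Mb its median was 3.88 times the library's own median in xeno, and 2.51 and 2.96 times in EF_IGF1 replicates 1 and 2, against 0.760 times in EF replicate 4 (S_221_0) and 0.516 to 0.991 times in the other libraries with peaks there. Of 1589 windows of 1 Mb with at least 8 peaks in each of the 3 libraries and EF replicate 4, the window from 9 to 10 Mb had the highest background in xeno and that from 8 to 9 Mb the third highest. The second was a window of the same chromosome from 53 to 54 Mb, at 3.83 times the median in xeno and 2.84 and 2.47 times in EF_IGF1 replicates 1 and 2, against 0.672 times in EF replicate 4. The folds there were low, 2.60 to 4.51 at the 7 gained regions of Trpc6 with 16 to 31 reads, at percentiles 0.228 to 12.1 of the xeno list. DNA copy number was not measured in these libraries, and the part of the background in these calls was not tested. Yap1 itself had 9 regions, of which 0 were gained, 0 lost and 4 called in all 3 libraries.

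**Figure D3:**
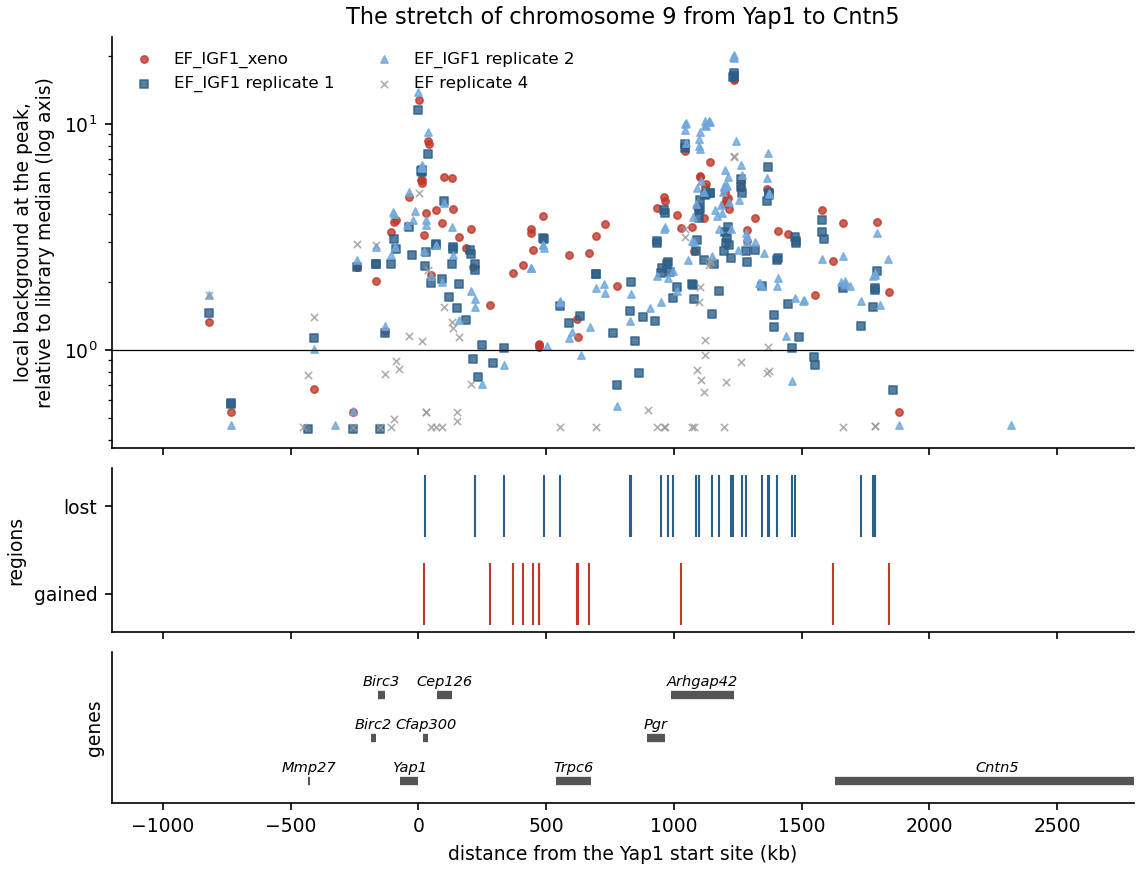
Local background at each peak relative to the library's median (top, log axis), gained and lost regions (middle) and genes (bottom) by distance in kb from the Yap1 start site on chromosome 9. Peaks of xeno and EF_IGF1 lie mostly above 1 from Yap1 to Cntn5, those of EF replicate 4 mostly below, with gained regions between Yap1 and Trpc6 and lost regions around Arhgap42.

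Chromosomes differed in both shares. Gained regions made up 3.27% of the regions of chromosome 18, 2.57% of chromosome 1 and 2.30% of chromosome 14, and as few as 0.953% of chromosome 11, 1.06% of chromosome 17 and 1.13% of chromosome 16. Lost regions made up 18.6% of chromosome 11, 18% of chromosome 7 and 17.2% of chromosome 9, and 8.92% of chromosome 18. Local background was set beside these shares. It was taken at the called peaks of each library, so gained and lost peaks enter its medians and the 2 measures are not independent. The xeno median on a chromosome, as a ratio to the mean of the EF_IGF1 libraries, was 0.865 on chromosome 11, 0.916 on chromosome 7 and 1.06 on chromosome 18. It was highest on chromosome X, at 1.15, with 1.65% gained and 12.2% lost. Across the 20 chromosomes this ratio had a Pearson r of 0.554 with the gained share (Spearman correlation 0.582) and −0.618 with the lost share (−0.650), as a description of chromosomes that share libraries, depth and base composition.

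**Figure D4:**
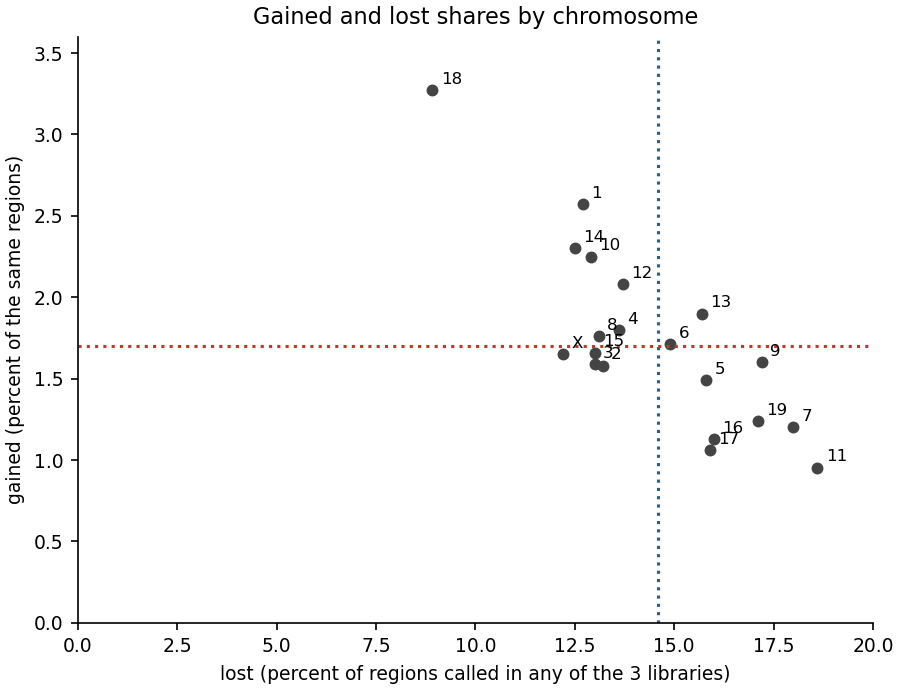
Gained (y axis) against lost (x axis) share of regions on each chromosome, with dotted lines at the shares over all chromosomes, 1.7% and 14.6%. Chromosome 18 stands at the top left with 3.27% gained and 8.92% lost, and chromosome 11 at the lower right.

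Gene lists were read against 1.63% gained and 14.7% lost over all regions within 100 kb of a gene. Of 27 lists, 13 were above the first share and 12 above the second, so that lists lay on both sides in either direction. The interval of the lost share lay below 14.7% for 2 lists and above it for 0, and the interval of the gained share lay above 1.63% for 1 list. The 27 lists were chosen with earlier results known, and regions of the same gene are not independent. These intervals are a description only.

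YAP and TEAD targets were among the lists with few lost regions, 25 of 272 (9.19%, interval 6.04 to 13.3), and 2 were gained. Asap1, an Arf GTPase-activating protein, had 3 lost regions, and Ankrd1, a classic YAP target, had 1 gained and 3 lost of 11 regions. The gained one, at chr19:36116232-36116517, had a fold of 4.96 in xeno, and the strongest lost one, at chr19:36118992-36119530, had folds of 4.19 and 3.02 in EF_IGF1 replicates 1 and 2. Mesenchymal stem and limb genes had 15 of 172 regions lost (8.72%) and 5 gained. With equal list lengths both lists stayed under the share of all regions, at 1.83% and 2.40% lost against 5.83%. In the gained direction they were then above it, at 7.31% and 9.60% against 6.99%. With full lists the gained share of YAP and TEAD targets was below, at 0.735% against 1.63%, and without EF_IGF1 replicate 1 at 3.14% against 4.44%. That of mesenchymal stem and limb genes was above in both settings, at 2.91% and 10.3%.

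The core of the Hippo pathway had 2 gained and 15 lost of 126 regions. Vgll4 had 1 gained and 4 lost of 19 regions, the gained one given above and the strongest lost one at chr6:114941128-114941914 with folds of 7.41 and 8.21. Tead1 and Tead4, DNA-binding partners of YAP1, had lost regions with folds of 4.46 and 7.56, and of 8.27 and 10.1.

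Hedgehog pathway genes had 6 gained of 118 regions (5.08%, interval 1.89 to 10.7), 4 of them at Gli2 and 1 each at Gli3 and Disp1, and 17 lost (14.4%). Gli3, the repressor partner of Gli2, had its gained region inside the gene at chr13:15666073-15666421 with a fold of 6.07, called in 2 of the 9 others. With equal list lengths 18.3% of the list's regions were gained against 6.99% of all regions, and 9.68% lost against 5.83%. Without EF_IGF1 replicate 1 the gained share was closer to that of all regions, at 6.48% (7 of 108) against 4.44%, with 39.8% lost against 35%. Smad3, Smad6 and Tgfbr2, of the TGF-beta and BMP pathway, each had 1 or more gained regions with folds of 5.71, 5.63 and 4.95 at the strongest, within 6 gained and 35 lost of 284. The WNT list had 7 gained and 37 lost of 249, with Dkk3, a secreted WNT modulator, Lrp5, a WNT co-receptor, and Wnt7b at folds of 7.10, 6.43 and 3.40.

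IGF and PI3-kinase genes had 4 gained regions, 3 at Irs2 and 1 at Igf1r, and 20 lost of 173. All 4 gained regions lay more than 20 kb from the gene, so that with genes within 20 kb the list had 0 gained of 122 regions. Igf1r had 1 gained and 3 lost of 20 regions. Its gained region, 42120 bp from the gene at chr7:67909846-67910137, had a fold of 6.12, and its strongest lost region, inside the gene at chr7:68181086-68181561, had folds of 10.9 and 6.88. Igf1 had 0 gained and 1 lost of 7 regions.

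EWS::FLI1 targets known from human Ewing sarcoma had 2 gained and 23 lost of 157 regions (14.6%, interval 9.52 to 21.2), at the share of all regions. Prkcb, a protein kinase C and a known target of the fusion, had 4 of 8 regions lost, Ccnd1, cyclin D1, 3 of 15, and Pappa, a protease that frees IGF from its binding proteins, 3 of 14. Nkx2-2, a transcription factor that the fusion needs in human cells, had 1 lost region 42345 bp away, at chr2:147133906-147134140, called in both EF_IGF1 libraries alone of all 12, with folds of 5.47 and 5.26. Nr0b1, another classic target, had no region.

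Interferon and antigen presentation genes had 0 gained and 15 lost of 64 regions (23.4%, interval 13.8 to 35.7), 3 of them at Nlrc5, the activator of MHC class I genes. Without EF_IGF1 replicate 1 the list was on the other side in both directions, at 29.3% lost against 35% of all regions and 6.90% gained against 4.44%. The gained promoters of Ifih1, Ifi44 and Oas1a belong to genes outside this list. At start sites 12 of 19 genes of this list were called in xeno, and 16 and 15 in EF_IGF1 replicates 1 and 2. Posterior HOX genes had 0 gained and 9 lost of 36 regions (25%, interval 12.1 to 42.2), but with equal list lengths 7.69% gained against 6.99% and 3.85% lost against 5.83%. Angiogenic factors, the FGF and PDGF pathway and smooth muscle and pericyte markers also had 0 gained, with 17 of 139, 19 of 122 and 18 of 99 lost. The osteogenic list had 1 gained and 21 lost of 130 regions, the chondrogenic list 2 and 17 of 92, and the adipogenic list 1 and 21 of 148. Their lost shares were 16.2%, 18.5% and 14.2%, against 14.7% of all regions, which lay inside the interval of each. Runx2, the main regulator of bone formation, had its strongest lost region at chr17:44458918-44459499 with folds of 7.38 and 10.1, and Spp1, osteopontin, at chr5:104445628-104446564 with 10.9 and 13.1. Endothelial markers had 4 gained and 17 lost of 86, blood cell markers 1 and 10 of 57, and hypoxia response genes 3 and 20 of 171. Collagens and matrix genes had 4 gained and 36 lost of 300, and matrix proteases 1 and 23 of 128, among them Mmp9, a gelatinase, with folds of 10.6 and 11.3. Cdkn2a had 0 gained and 2 lost of 4 regions, and Prrx1 0 and 2 of 9.

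**Figure D5:**
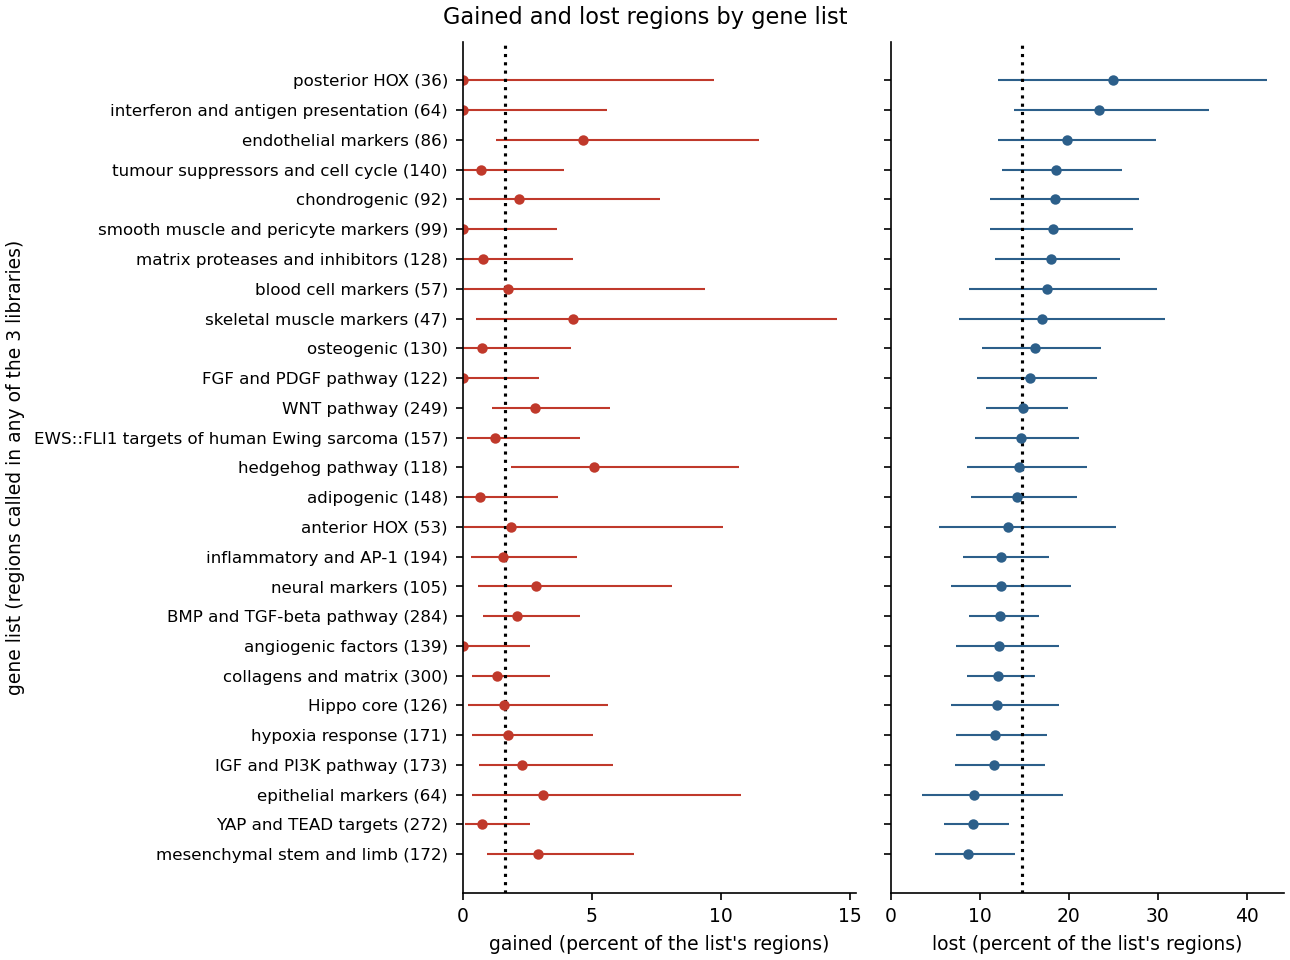
Share of each list's regions that were gained (left) or lost (right), in percent, with 95% Clopper-Pearson intervals and dotted lines at the shares over all regions near a gene, 1.63% and 14.7%; the number of regions per list is in parentheses. YAP and TEAD targets and mesenchymal stem and limb genes lie below the line for lost regions, and the hedgehog pathway above that for gained regions.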

How the data were processed

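Peak lists from ATAC-seq of 12 libraries were analysed, 1 list per library. The submitters' processing notes name MACS2 (no version) and the build GRCm38.p3. Not given in the sources used here are the aligner, its filters, a control, read totals and whether reads were shifted for transposase binding. For each peak the deposited columns give a fold enrichment (ratio), −log10 p-value and −log10 q-value, and a score of 10 times the last. These values belong to single lists of the authors, so ranks and filters were applied within a list. Peaks reach down to a −log10 q of 2.60 in xeno and 2.48 in both EF_IGF1 libraries.

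Reads at the summit and local background were solved from the fold and the p-value as an upper Poisson tail, within 0.001 of the deposited −log10 p for 100% of peaks. Peaks sharing at least 1 bp were merged, and each region went to the nearest of 21631 protein-coding genes (GRCm38.p6, which shares chromosome coordinates with p3) within 100 kb. Start sites came from RefSeq promoters of 17274 genes, and sequences on chromosome 18 were not used. Merging and solving were checked on simulated peaks. Groups follow the genotype label. Nothing says that replicates came from separate animals.

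Members and gene lists were chosen with earlier results of these data known. Named are, in each direction, the 15 genes with most regions, the 10 strongest regions, up to 4 members per list (not all are given), and the genes Igf1, Yap1, Prrx1, Igf1r, Cdkn2a, Nr0b1 and Nkx2-2. Intervals are exact Clopper-Pearson at 95%. No test was made, since xeno is 1 library. Alternatives were stricter peaks (−log10 q of 5 or more), equal list lengths, windows of 250 bp on each side of the summit, merging of 3 libraries only, 50% overlap, leaving out either EF_IGF1 library, and other distances. Analyses used Python 3.11.15, numpy 2.4.6, pandas 2.3.3 and scipy 1.17.1.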

Additional observations from a re-analysis of the deposited data

How the results depend on the processing

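Equal list lengths turned the balance, with 3857 gained and 3119 lost regions, and left 6.16% of lost regions near a gene end. Leaving out an EF_IGF1 library gave 3024 to 3040 gained and 18489 to 22715 lost regions, with 7.89% to 10.8% of gained and 5.59% to 6.79% of lost regions near a gene end, since fewer calls are then asked for. Other rules on peaks kept the counts within 1.5 times. Stricter peaks gave 11.3% of gained and 7.07% of lost regions near a gene end, beside 11.4% and 6.94% in the main setting. Other windows, overlaps, distances to a gene end and merging gave larger shares. Windows of 250 bp on each side of the summit gave 19.1% of gained and 8.32% of lost regions, and 50% overlap without merging gave 15.2% and 9.05%. With 2 kb in place of 1 kb the shares were 16.4% and 12.7%, and with merging of the 3 libraries 13.1% and 7.75%. Distance to a RefSeq start site, an alternative chosen after seeing the data, gave 7.96% and 3.88%. The gained share was above the lost share in each of these settings, and causes were not tested.

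Under equal list lengths 6.99% of regions near a gene were gained and 5.83% lost, and 19 lists moved in the gained and 23 in the lost share. Without EF_IGF1 replicate 1 these values were 4.44% and 35%, with 7 and 25 lists, and with genes within 20 kb 1.60% and 14.6%, with 5 and 0 lists. No paired analysis was possible because the xeno group holds 1 library and replicate numbers follow accession order. Depth is known only through list lengths and backgrounds, and a region without a call may be open below the calling threshold.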
